A study of Mus musculus with 12 samples.

Results

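The RNA of 10 chemokine genes was followed in the mouse submandibular gland (SMG), namely Ccl6, Ccl8, Ccl9, Ccl22, Ccl28, Pf4, Cxcl12, Cxcl14, Cxcl17 and Cx3cl1. They were taken by symbol from a count table of 56065 genes, and all 10 passed the filter on low counts that left 17893 genes for testing. By their best known sources they were set in 3 classes. Ccl6, Ccl8, Ccl9, Ccl22 and Pf4 formed the myeloid class of 5, Cxcl12 stood alone as the stromal chemokine, and Ccl28, Cxcl14, Cxcl17 and Cx3cl1 formed the epithelial class of 4. These borders are loose, since fibroblasts also make Ccl8 and Cxcl14, and endothelium and neurons also make Cx3cl1.

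The study asked what tuft cells, rare chemosensory cells of the ducts, contribute to the gland. Bulk RNA-sequencing was performed on snap-frozen SMG of C57BL/6J wild-type (WT) mice and of C57BL/6J-Pou2f3-/- (KO) mice, which lack the transcription factor that tuft cells need. There were 4 groups of 3 mice aged 8 weeks, WT females, KO females, WT males and KO males, with 1 library per mouse. The knockout is a germline loss (em1Cbwi allele), so every organ of a KO mouse lacks the gene, and both genotypes share the C57BL/6J background. Pou2f3 itself had 1, 0 and 2 counts in WT females, 0, 0 and 0 in KO females, 1, 10 and 0 in WT males and 0, 3 and 1 in KO males. At this level of whole-gland RNA the targeted transcript could not check the genotype labels.

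Chemokines are small secreted proteins that steer leukocytes along gradients by binding receptors coupled to G proteins. Some are made all the time and set where resident leukocytes lodge, while others are made on demand by macrophages and other activated cells. In the salivary glands Ccl28 is the best known of them, since ductal and acinar epithelium secretes it and plasma cells that make IgA home to it.

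Total counts per library lay between 47031917 and 67881902, and the 20 most abundant genes took 51.8% to 79.3% of them. Levels are given as normalized counts, which are counts scaled by edgeR's TMM method to one common library size. A gland library holds all of its cells, so that fewer cells of a type and less RNA per cell cannot be told apart. Several libraries stood apart in markers of other cells. The first WT female had a sum of 12103 normalized counts over 13 macrophage markers, against 5342 and 7016 in the others of its group, and its Adgre1, the gene of the macrophage antigen F4/80, was at 2510.4 against 369.6 and 517. The third WT female and the second and the third KO males had 4536, 3325 and 2040 normalized counts over 5 adipocyte markers, against 94.4 to 599 in the other 9 libraries. For the members, values without these libraries are given where leaving them out ended a call, and for some estimates that it moved. Of the other genes such values are given only for Cx3cr1 in females, so other calls described here may rest on these libraries. Muc19, a gene of the acinar marker list, was at 283335 normalized counts in the third KO female and 427285 in the third WT male. It was at 104 to 10072 in the rest, and its part in the values of these libraries was not tested.

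Measured per length of transcript in wild-type glands, the epithelial chemokines were the most abundant of the 10 and the myeloid chemokines Pf4 and Ccl22 the least. In WT females Ccl28 stood first with 2558 ± 87.9 normalized counts per kb of its longest transcript (SD, n = 3). Cxcl17 (738 ± 103) and Cxcl14 (727 ± 81.5 per kb) followed and lay within each other's spread, and Cx3cl1 came next at 385 ± 56.8 per kb. Ccl6 (254 ± 108), Cxcl12 (240 ± 42.4) and Ccl9 (166 ± 89.3 per kb) also lay within each other's spread. Ccl8 followed at 94.0 ± 29.1, Pf4 at 23.4 ± 4.61 and Ccl22 at 12.4 ± 3.34 per kb. The spread of Cx3cl1 overlapped that of Ccl6, and the spread of Ccl8 overlapped that of Ccl9. In WT males the first place went to Cxcl17 with 1790 ± 122 per kb, ahead of Cxcl14 with 1085 ± 55.8 and Ccl28 with 979 ± 222, and Cxcl14 and Ccl28 lay within their spread. The lower end of the male order was Ccl8 at 36.7 ± 8.26, Pf4 at 24.8 ± 4.53 and Ccl22 at 9.27 ± 2.82 per kb, where the spreads of Ccl8 and Pf4 overlapped. In KO males the order of the means differed, with Cxcl14 at 1653 ± 446 and Cxcl17 at 1334 ± 448 per kb. These lay within each other's spread, as did Ccl6 (344 ± 186) and Cx3cl1 (322 ± 29.3 per kb). The plot of levels per transcript length shows all 4 groups.

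**Figure D1:**
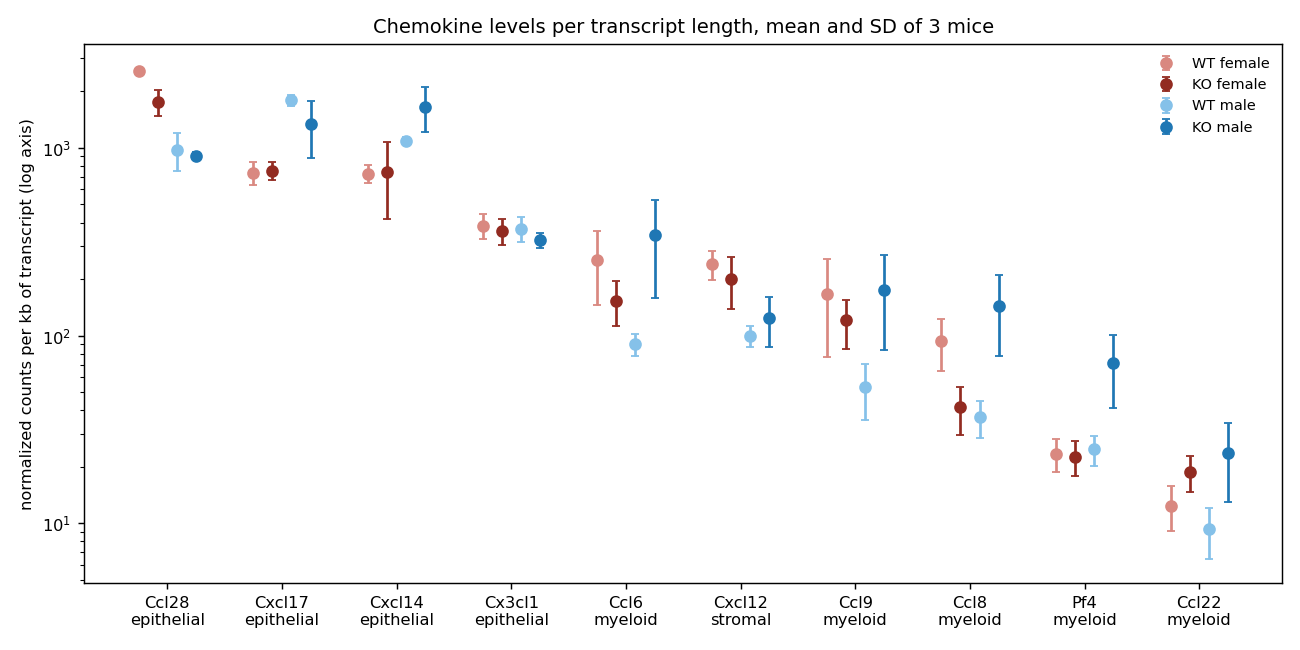
Normalized counts per kb of the longest transcript on a log axis for each chemokine gene and group, as mean and SD of 3 mice. Genes are ordered by their level in wild-type glands, from Ccl28 to Ccl22, and the KO males have the highest group mean for Ccl6, Ccl8, Ccl9, Pf4, Ccl22 and Cxcl14.

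Expressed as a share of the summed normalized counts per kb of the 10 genes, the epithelial class made up 84.8% ± 4.60 in WT females, 86.8% ± 1.87 in KO females, 93.1% ± 0.683 in WT males and 83.1% ± 7.08 in KO males (SD, n = 3). Cxcl14, which fibroblasts also make, alone made up 14.0% ± 1.23 in WT females and 23.9% ± 0.958 in WT males. With Cxcl14 counted apart but kept in the total, the epithelial share was 70.8% ± 4.27 in WT females and 69.4% ± 6.99 in KO females. It was 69.2% ± 0.471 in WT males and 50.9% ± 13.6 in KO males. Because Cxcl14 stayed in the total, these shares do not show whether the sex difference depended on it. The myeloid class made up 10.6% ± 4.31, 8.46% ± 1.16, 4.70% ± 0.508 and 14.5% ± 6.55 in the same order. In KO males its share was 7.05%, 19.2% and 17.4% in the 3 mice, so the second and the third mice carried the high group mean. Cxcl12 made up 2.20% ± 0.180 in WT males and 4.60% ± 0.716 in WT females.

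Wild-type males and females were compared first, to see how the chemokines stood in glands that have tuft cells. Ccl28, Cxcl12, Ccl6, Ccl8 and Ccl9 were lower in WT males, Cxcl17 was higher, and Ccl22, Pf4, Cxcl14 and Cx3cl1 did not pass the test. Thus 6 of the 10 were called at an adjusted p under 0.05 (edgeR quasi-likelihood test, Benjamini-Hochberg over all genes tested), where 36.5% of all genes tested were called. Lower calls numbered 5 of 10, where 16% of all genes were called lower. The values of 5 genes did not overlap between the sexes with males lower, a pattern that 20.9% of all genes showed.

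Ccl28, the mucosal chemokine of the gland, had 9196, 9682 and 9822 normalized counts in the WT females and 3059, 4609 and 3313 in the WT males. The groups were far apart, with a log2 difference of -1.39 (95% interval -1.72 to -1.05, adjusted p = 1.8e-05). Cxcl12, the stromal ligand of Cxcr4 that holds progenitors and lymphocytes in place, had 1383, 1106 and 1585 in WT females and 502, 647 and 552 in WT males. Every WT male was below every WT female, and the log2 difference was -1.26 (95% interval -1.78 to -0.74, adjusted p = 0.0013). Cxcl17, a mucosal chemokine that draws myeloid cells, ran the other way with 561, 728 and 717 in WT females against 1559, 1557 and 1749 in WT males. Its log2 difference was 1.28 (95% interval 0.86 to 1.70, adjusted p = 2.2e-04), and these 3 calls held when any single library was left out. Markers of the gland's cells differed between the sexes too. In WT males 5 of 6 acinar and 5 of 7 endothelial markers were called lower, with median log2 differences of -1.09 and -0.65. Also called lower were 4 of 5 adipocyte markers (median -4.63), beside 16% of all genes tested. Their sums were 223, 599 and 4536 normalized counts in the WT females and 94.4 to 106 in the WT males. Called higher were 5 of 5 markers of the granular convoluted tubule, the androgen-dependent duct segment of male rodents (median 6.46). So were 4 of 5 myoepithelial (median 1.48) and 3 of 7 duct markers (median 0.71), beside 3660 of all 17893 genes tested. Of the 8 fibroblast markers 1 was called higher and 0 lower in WT males (median 0.20). The part of all these cell types in the differences of Ccl28, Cxcl12 and Cxcl17 was not tested.

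The myeloid chemokines Ccl6, Ccl9 and Ccl8 were also lower in WT males, by log2 differences of -1.50 (adjusted p = 0.0114), -1.65 (adjusted p = 0.0136) and -1.35 (adjusted p = 0.0214). These calls rested in part on the first WT female, the library high in macrophage markers. Without it the differences were -1.13, -1.22 and -1.11 with adjusted p = 0.0526, 0.0622 and 0.0806, and the count of called members fell from 6 to 3, beside 34.8% of all genes called in that fit. Of these calls, that of Ccl9 was also lost without the first or the third WT male and that of Ccl8 without the second or the third WT male. Of the 13 macrophage markers, 6 were called lower and 1, Mertk, higher in WT males, while the summed levels overlapped at 5342 to 12103 in WT females and 5685 to 6630 in WT males. Set against that sum, Ccl6 amounted to 4.50, 4.93 and 4.10 normalized counts per 100 marker counts in the WT females and to 2.00, 2.31 and 1.92 in the WT males. The ratio of Ccl6 to the markers was thus also lower in every WT male than in every WT female. The sum includes Mertk, with a mean of 347 normalized counts in WT females and 1184 in WT males. The parts of the macrophage and adipocyte content in the sex difference were not tested further.

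In females, loss of Pou2f3 went with lower Ccl28 and lower Ccl8, and the other 8 genes did not pass the test. The 2 calls were both lower ones. Among all genes tested 36.9% were called and 19.3% were called lower, so that 2 of 10 is close to the share called lower. The same 2 genes were those whose values did not overlap with KO lower, as in 24.1% of all genes. This comparison and that of the sexes both use the WT females.

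Ccl28 had 5558, 6543 and 7575 normalized counts in the KO females, all below the 9196 to 9822 of the WT females. The log2 fold change was -0.54 ± 0.15 (SE, 95% interval -0.87 to -0.22, adjusted p = 0.0139). KO females still stood above both male groups, whose highest value was 4609. Ccl28 kept its call when any single library was left out, with log2 fold changes from -0.71 to -0.48, and its fold change was as large without the 3 libraries high in adipocyte markers, at -0.56 with an adjusted p of 0.0541. Of the 6 acinar markers 4 and of the 7 duct markers 4 were called lower in KO females, beside 19.3% of all genes, and the part of epithelial content in the Ccl28 difference was not tested.

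Ccl8, a monocyte chemoattractant made by macrophages and fibroblasts, had 65.2, 36.3 and 43.7 normalized counts in the WT females and 21.9, 27.2 and 14.9 in the KO females. The groups did not overlap, and the log2 fold change was -1.17 ± 0.42 (95% interval -2.08 to -0.27, adjusted p = 0.0427). This call was the less secure of the pair, since the counts behind it were 12 to 58 per library. It was lost when the first or the third WT female, the first or the third KO female, the third WT male or the third KO male was left out, with adjusted p from 0.0526 to 0.129. It was also lost with upper-quartile scaling, protein-coding library sizes or the replicate block (adjusted p = 0.0655, 0.0538 and 0.0583), and without the 3 libraries high in adipocyte markers, where the log2 fold change was -1.28 (adjusted p = 0.0545). Ccl6 had 545, 263 and 288 normalized counts in WT females and 176, 289 and 198 in KO females, and Ccl9 had 777, 240 and 481 against 291, 484 and 311. Both sets overlapped, with log2 fold changes of -0.73 (95% interval -1.59 to 0.14) and -0.46 (95% interval -1.43 to 0.50). The first WT female was the highest of its group for Ccl6, Ccl8 and Ccl9, as it was for the macrophage markers. Without it the log2 fold changes were -0.38 for Ccl6, -0.05 for Ccl9 and -0.95 for Ccl8.

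Ccl22, a chemokine of dendritic cells and macrophages that draws Ccr4-bearing T cells, was the single myeloid member with a positive estimate in females. It had 19.1, 32.4 and 31.6 normalized counts in WT females and 42.7, 50.5 and 32.2 in KO females, and its log2 fold change of 0.60 (95% interval -0.28 to 1.48) did not pass the test. The intervals of Pf4 (-0.79 to 0.68), Cxcl12 (-0.77 to 0.26), Cxcl14 (-0.51 to 0.59), Cxcl17 (-0.38 to 0.45) and Cx3cl1 (-0.41 to 0.23) on the log2 scale all spanned 0. Cx3cl1, the membrane-bound ligand of Cx3cr1, was the most even of the 10, with 966 to 1491 normalized counts over the 12 libraries.

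**Figure D2:**
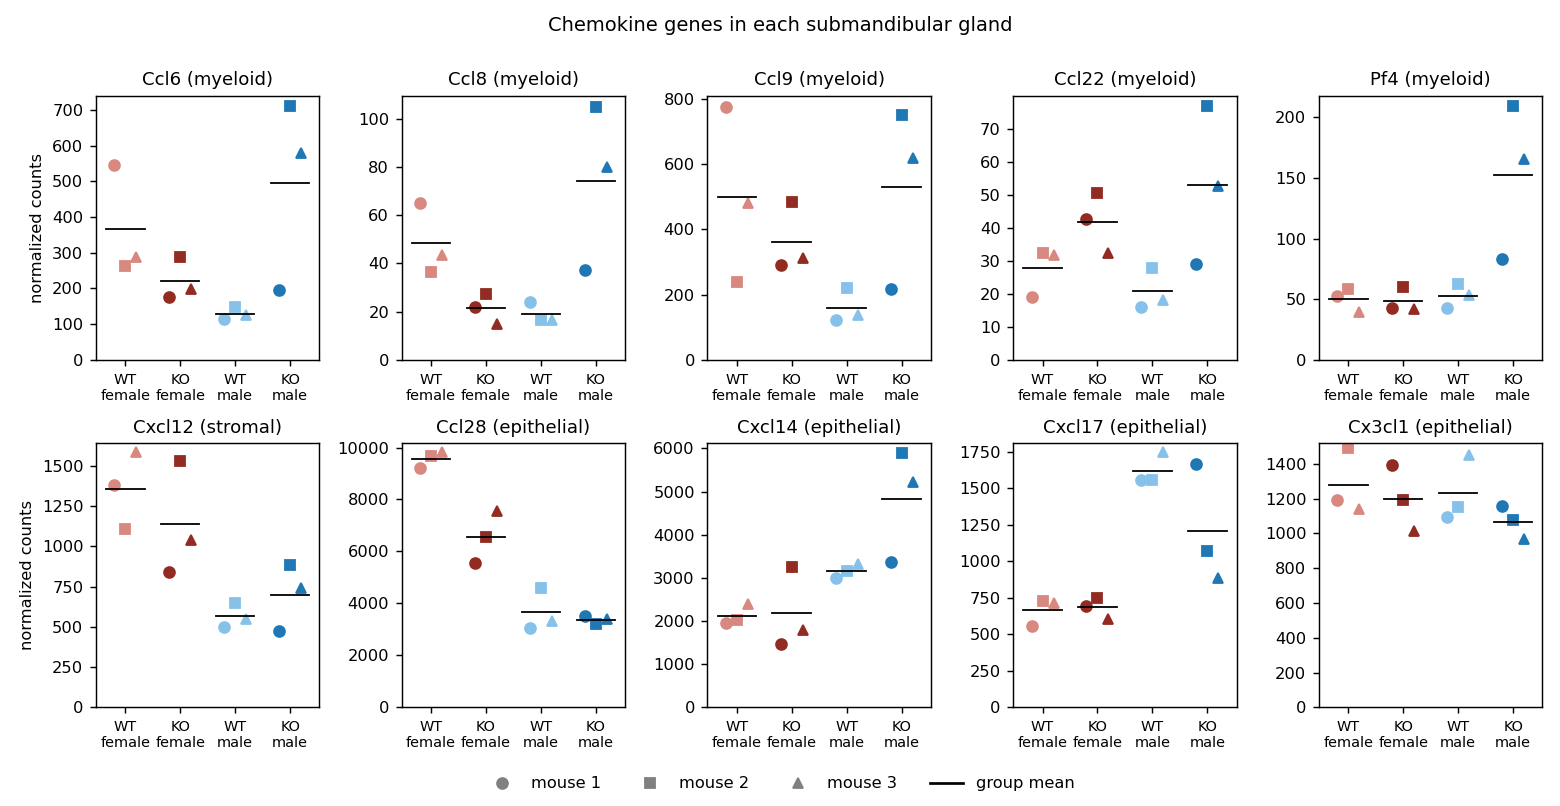
Normalized counts of each chemokine gene in each mouse, by group, with the group mean as a line and a marker shape per mouse number, which does not pair mice across groups. The first KO male sits near the wild-type males for Ccl6, Ccl9 and Ccl22, while the second and the third KO males are well above them.

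In males, the 5 myeloid chemokines had positive estimates of 1.34 to 1.96 on the log2 scale, and none of the 10 genes passed the test. The edgeR test gave 0 calls among the members at an adjusted p under 0.05 and it called 0.235% of all genes tested. At an unadjusted p under 0.05 there were 7 members, and 11.5% of all genes tested. DESeq2 called 4 members (Ccl6, Ccl8, Ccl9 and Pf4), where it called 2.27% of all genes. The 5 myeloid genes stand in the study's own list of male genes, which was made from these same libraries, so that their direction here is not independent evidence. Values of 5 members, Ccl6, Ccl8, Ccl22, Pf4 and Cxcl14, did not overlap with KO higher, as in 6.51% of all genes.

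Ccl6, a rodent chemokine of macrophages that acts through Ccr1, had 114, 148 and 127 normalized counts in the WT males and 195, 709.5 and 580.1 in the KO males. The first KO male stood just above the WT range and the other 2 far above it. The log2 fold change was 1.93 ± 0.41 (SE, 95% interval 1.05 to 2.81, adjusted p = 0.0889). Its neighbour Ccl9, also a ligand of Ccr1, had 121, 219 and 138 in WT males and 217, 751 and 618 in KO males, so that the first KO male lay inside the WT range. Its log2 fold change was 1.73 ± 0.46 (95% interval 0.73 to 2.72, adjusted p = 0.155).

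Ccl8 had 23.8, 16.4 and 16.5 normalized counts in WT males and 37.3, 105 and 79.9 in KO males, a log2 fold change of 1.96 ± 0.41 (adjusted p = 0.0889). Pf4, known as a platelet granule chemokine and also made by tissue macrophages, had 43.0, 62.4 and 53.6 in WT males and 83.0, 209 and 165 in KO males. All KO males were above all WT males for both, and the log2 fold change of Pf4 was 1.52 ± 0.32 (adjusted p = 0.0970). Ccl22 had 16.1, 27.9 and 18.1 in WT males and 28.9, 76.9 and 52.7 in KO males, with a log2 fold change of 1.34 ± 0.40 (adjusted p = 0.1996). The 3 mice kept 1 order in all 5 genes, the second KO male highest and the first lowest.

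The male calls turned on the test, on the filter and on the first KO male. With no low-count filter edgeR called the same 4 members as DESeq2. Without the first KO male 6 members were called, Ccl6, Ccl8, Ccl9, Ccl22 and Pf4 as higher and Cxcl17 as lower, with 3.42% of all genes called. The second and the third KO males, which carried the high values, were also those high in adipocyte markers, at 3325 and 2040 against 218 in the first KO male and 94.4 to 106 in the WT males. With these 2 and the third WT female left out, the single remaining KO male was assumed to vary like the other groups. The log2 fold changes in males were then 0.59 for Ccl6, 0.97 for Ccl8, 0.45 for Ccl9, 0.48 for Ccl22 and 0.65 for Pf4, and 0 members passed (lowest unadjusted p = 0.0870).

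The stromal and epithelial members showed smaller differences in males. Cxcl14, made by epithelium and fibroblasts, had 3009, 3167 and 3335 normalized counts in WT males and 3378, 5898 and 5212 in KO males, a log2 fold change of 0.61 ± 0.25 (adjusted p = 0.376). Without the 3 libraries high in adipocyte markers the estimates in males were 0.095 for Cxcl14, 0.042 for Cxcl17 and -0.24 for Cxcl12. All 8 fibroblast markers had positive estimates in males, with 0 called, and their sums were 24436 to 26689 in WT males against 29984, 53485 and 42015 in KO males. Cxcl17 had 1559, 1557 and 1749 in WT males and 1666, 1072 and 889 in KO males, so the mice highest in myeloid chemokines were lowest here. Its log2 fold change was -0.42 ± 0.19 (adjusted p = 0.411). Cxcl12 at 0.31 (95% interval -0.21 to 0.83), Ccl28 at -0.11 (95% interval -0.44 to 0.21) and Cx3cl1 at -0.21 (95% interval -0.52 to 0.11) had intervals that spanned 0.

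**Figure D3:**
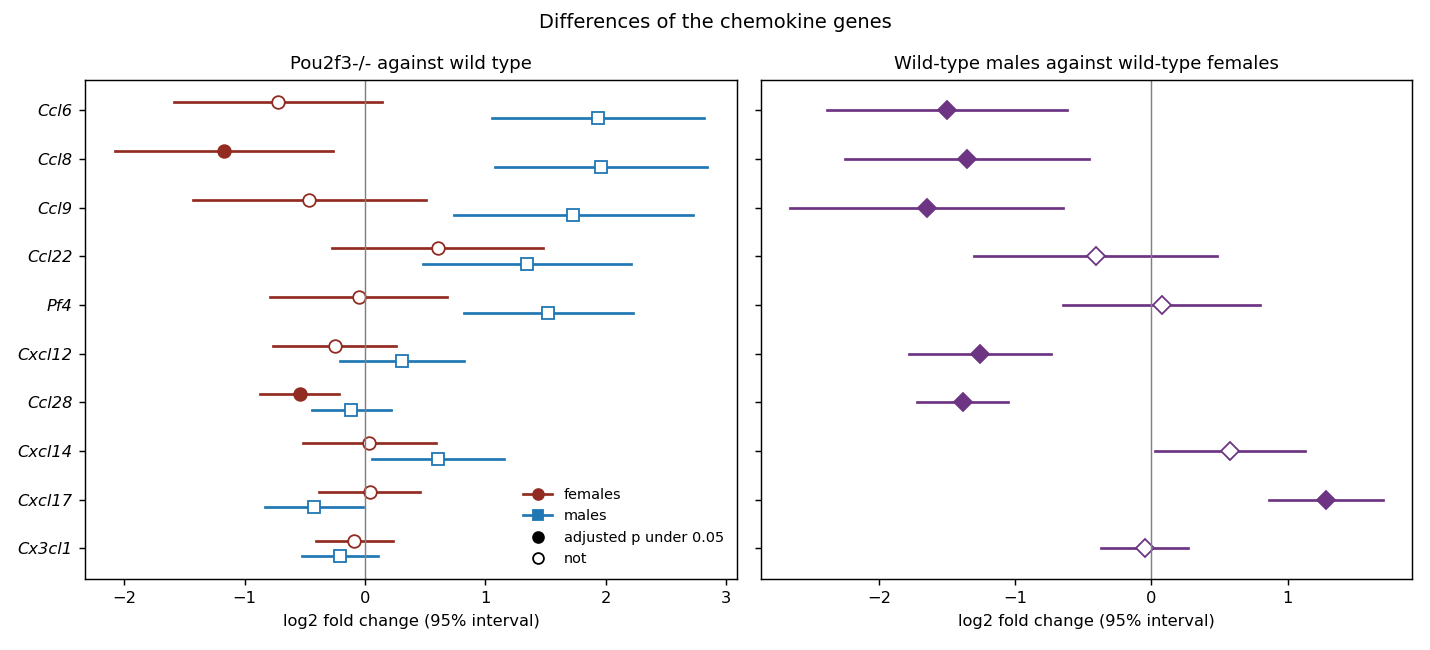
Log2 fold changes with 95% intervals from the edgeR fit for each chemokine gene, left for Pou2f3-/- against wild type in females (circles) and males (squares), right for wild-type males against wild-type females. Filled symbols passed an adjusted p of 0.05, which 2 genes did in females, 0 in males and 6 between the sexes.

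Whether the genotype difference itself differed between the sexes was tested as an interaction. It passed for Ccl6, Ccl8, Ccl9 and Pf4 and for no other member, each with a lower estimate in females than in males. That is 4 of 10 genes, beside 25.7% of all genes tested called in either direction and 12.4% called in this one. The female minus male difference was -3.13 ± 0.58 on the log2 scale for Ccl8 (adjusted p = 0.0048), -2.66 ± 0.57 for Ccl6 (adjusted p = 0.0077), -2.19 ± 0.64 for Ccl9 (adjusted p = 0.0267) and -1.57 ± 0.47 for Pf4 (adjusted p = 0.0289). For Ccl22 it was -0.74 (95% interval -1.97 to 0.48), and for the epithelial members and Cxcl12 the intervals also spanned 0. Because the male estimates of these genes enter the interaction, it shares their dependence on the study's gene list.

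Ccl6 and Ccl8 kept the interaction call when any single library was left out, with adjusted p of at most 0.0258 and 0.0154. Ccl9 and Pf4 lost it when the first or the third KO female, the first or the third WT male, or the second or the third KO male was left out. Without the 3 libraries high in adipocyte markers no member passed, and no gene of the 19381 tested did. The differences were then -1.50 for Ccl6, -2.25 for Ccl8, -0.97 for Ccl9 and -0.89 for Pf4, with unadjusted p = 0.0102, 0.0067, 0.185 and 0.0863.

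The promoters of these 4 genes are shown because they moved together in the interaction. Each line gives the 250 bases before and the 50 after the RefSeq start of the gene (table build GRCm38.p6), which matched the GRCm39 genome exactly once, at chr11:83483864-83484163 on the minus strand for Ccl6, chr11:83469413-83469712 on the minus strand for Ccl9, chr11:82005761-82006060 on the plus strand for Ccl8 and chr5:90920044-90920343 on the plus strand for Pf4. Capitals mark TATAAA, the TATA box, and GGAAGT, a core bound by ETS factors such as the myeloid regulator PU.1, on either strand and with overlapping matches joined. In Ccl9 and Pf4 the RefSeq start lies inside the span of the Gencode gene model.
Ccl6: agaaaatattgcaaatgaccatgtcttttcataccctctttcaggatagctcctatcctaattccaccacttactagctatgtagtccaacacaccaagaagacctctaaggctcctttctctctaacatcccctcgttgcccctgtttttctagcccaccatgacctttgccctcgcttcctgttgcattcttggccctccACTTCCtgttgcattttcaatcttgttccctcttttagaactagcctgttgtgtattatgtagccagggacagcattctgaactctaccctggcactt
Ccl9: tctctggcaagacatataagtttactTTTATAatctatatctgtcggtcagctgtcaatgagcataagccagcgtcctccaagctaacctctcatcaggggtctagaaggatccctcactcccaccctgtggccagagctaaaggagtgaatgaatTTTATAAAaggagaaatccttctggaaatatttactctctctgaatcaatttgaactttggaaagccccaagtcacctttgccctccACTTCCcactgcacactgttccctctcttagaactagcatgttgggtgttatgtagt
Ccl8: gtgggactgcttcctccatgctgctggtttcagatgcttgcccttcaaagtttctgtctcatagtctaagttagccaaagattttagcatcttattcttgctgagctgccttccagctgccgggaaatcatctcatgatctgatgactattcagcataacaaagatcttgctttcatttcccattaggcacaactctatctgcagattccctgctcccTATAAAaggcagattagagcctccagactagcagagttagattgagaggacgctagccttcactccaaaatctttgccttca
Pf4: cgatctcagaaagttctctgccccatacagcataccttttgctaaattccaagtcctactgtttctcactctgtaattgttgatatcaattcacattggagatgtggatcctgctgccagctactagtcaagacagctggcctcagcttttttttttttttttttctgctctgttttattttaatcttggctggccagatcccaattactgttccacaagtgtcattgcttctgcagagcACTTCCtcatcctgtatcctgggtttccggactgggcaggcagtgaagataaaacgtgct

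Of the 10 members 9 had a promoter in the table, all but Cxcl17. GGAAGT occurred in 5 of the 9, Ccl6, Ccl9, Ccl22, Pf4 and Ccl28, and in 23.8% of 32851 promoters of this length. TATAAA occurred in 3 of the 9, Ccl8, Ccl9 and Cx3cl1, and in 13.6% of all. Near the start of transcription the Ccl6 and Ccl9 promoters shared a run of 13 bases that holds the ACTTCC in capitals. The longest run that the Ccl6 promoter shared with another promoter was 8 bases at the median, and 0.201% of the 32850 others shared 13 or more. The Ccl9 and Ccl6 genes lie 5546 bases apart on chromosome 11 (GRCm39), on the same strand, with Ccl8 on the same chromosome, and Ccl22 and Cx3cl1 lie 20309 bases apart on chromosome 8. These matches are descriptions of sequence, not of binding.

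The myeloid chemokines were set beside the markers of the cells that could carry them. Summed over the 5 genes, they had 1459, 630.2 and 883 normalized counts in WT females, 574, 911 and 599 in KO females, 318, 474 and 353 in WT males and 561, 1851 and 1496 in KO males. The 13 macrophage markers summed to 4889, 6977 and 5785 in KO females, 5685, 6392 and 6630 in WT males and 6884, 11866 and 11069 in KO males. The libraries with the highest sums of both were the first WT female and the second and the third KO males. In males 12 of the 13 macrophage markers had positive estimates, 0 were called and 9 had an unadjusted p under 0.05, beside 11.5% of all genes tested. In the interaction 8 of the 13 were called and 7 of them were lower, beside 25.7% and 12.4% of all genes. One of them was C1qa, the complement component of resident macrophages, with a difference of -1.47 (adjusted p = 0.0138).

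**Figure D4:**
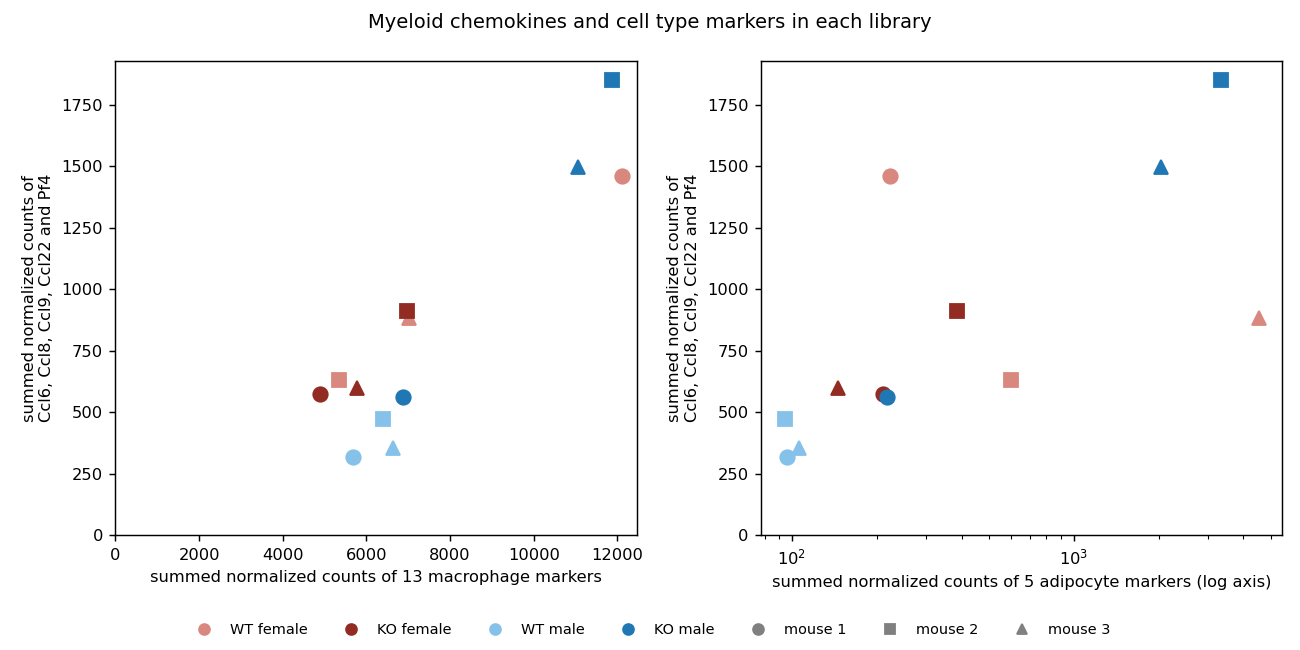
Summed normalized counts of Ccl6, Ccl8, Ccl9, Ccl22 and Pf4 in each library against the summed normalized counts of 13 macrophage markers (left) and 5 adipocyte markers (right, log axis). The first WT female and the second and the third KO males are highest on the left, at 12103, 11866 and 11069, while on the right the third WT female is high in adipocyte markers with 883 chemokine counts.

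Per 100 counts of the macrophage markers, Ccl6 amounted to 2.00, 2.31 and 1.92 in WT males and 2.83, 5.98 and 5.24 in KO males, and Ccl8 to 0.419, 0.257 and 0.249 against 0.542, 0.885 and 0.722. Pf4 amounted to 0.757, 0.976 and 0.808 against 1.21, 1.76 and 1.49. For these 3 genes the ratio was higher in every KO male than in every WT male, while those of Ccl9 (2.14, 3.43 and 2.08 against 3.16, 6.33 and 5.59) and Ccl22 (0.284, 0.437 and 0.274 against 0.420, 0.648 and 0.476) overlapped. The share of all genes with such ratios apart was not computed, and the part of macrophage content in the male values was not tested further. In females the ratio of Ccl8 was 0.539, 0.680 and 0.623 in WT and 0.449, 0.389 and 0.257 in KO mice, again without overlap. The ratio of Ccl9 overlapped in females, at 6.42, 4.49 and 6.85 in WT and 5.95, 6.94 and 5.38 in KO mice.

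Other cells were checked for the same genes. Of 8 megakaryocyte and platelet markers the platelet receptor genes Gp9, Gp1ba, Gp1bb and Gp6 were at 0 to 5.77 normalized counts in all libraries and Clec1b at 0 to 7.50. The platelet chemokine gene Ppbp had 3.84, 2.46 and 7.42 in WT males and 4.66, 13.1 and 29.05 in KO males. Itga2b, which megakaryocytes share with blood progenitors and mast cells, led the list with 30.7, 51.7 and 34.6 normalized counts in WT males and 90.5, 189 and 133 in KO males, the same order of mice as Pf4. In females the genes went apart, since Itga2b was called higher in KO (log2 fold change 1.64, adjusted p = 0.0199) and the estimate of Pf4 was -0.05. Haemoglobin and other blood markers summed to 83.8, 100.2 and 89.9 in WT males and 167, 570 and 436 in KO males. The 8 dendritic cell markers summed to 579.6, 596 and 679 in WT males and 628, 1033 and 1071 in KO males, beside Ccl22. The part of platelets, blood and dendritic cells in the Pf4 and Ccl22 values was not tested. Markers of neutrophils and monocytes (6) and of T and B lymphocytes (9) summed to at most 100.1 and 57.3 in any library.

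A further 27 chemokine ligands were examined as the family's other members, of which 16 passed the filter on low counts. In KO females 1 was called higher and 1 lower, and the interaction called 3, which are smaller shares than the 36.9% and 25.7% of all genes tested. In KO males 0 were called and 4 had an unadjusted p under 0.05, beside 11.5% of all genes tested. Ccl25, an epithelial chemokine that draws Ccr9-bearing lymphocytes, had 323, 263 and 148 normalized counts in WT females and 487, 426 and 688 in KO females, a log2 fold change of 1.12 ± 0.26 (adjusted p = 0.0058). It thus rose in the same KO females in which Ccl28 fell. Xcl1 fell by 1.42 on the log2 scale (adjusted p = 0.0497), from 22.5, 42.8 and 93.4 to 16.2, 16.5 and 26.0 with overlap. The value of 93.4 was that of the third WT female, a library high in adipocyte markers, and the change without it is not given. In the interaction Ccl7 (-4.53, adjusted p = 0.0179) and Ccl12 (-2.74, adjusted p = 0.0279), both monocyte chemoattractants, were lower in the female difference, and Ccl25 was higher (1.21, adjusted p = 0.0311). Ccl7 and Ccl12 had at most 25 counts in each female library. The median log2 fold change of the 16 was -0.39 in females and 0.74 in males, beside 0.03 and -0.04 over all genes and -0.17 and 0.98 over the 10 members.

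Of 24 chemokine receptors 15 were tested. In KO females 1 was called lower, Cx3cr1, and the interaction called 2, Ccr1 and Ccr2, both lower, again smaller shares than the 36.9% and 25.7% of all genes. In KO males 0 were called, with 5 at an unadjusted p under 0.05, beside 11.5% of all genes tested. Ccr1, the receptor of Ccl6 and Ccl9, had 73.1, 50.6 and 54.3 normalized counts in WT females, 19.6, 41.7 and 16.1 in KO females, 47.7, 73.9 and 50.3 in WT males and 50.4, 105 and 152 in KO males. Its interaction was -2.02 ± 0.60 (adjusted p = 0.0294). Ccr2, the receptor of Ccl7 and Ccl12 on inflammatory monocytes, had an interaction of -1.29 ± 0.44 (adjusted p = 0.0482).

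Cx3cr1, the receptor of Cx3cl1 on resident macrophages, had 1372, 541 and 502 normalized counts in WT females and 374, 512 and 421 in KO females, a log2 fold change of -0.89 ± 0.30 (adjusted p = 0.0360) with overlap between the groups. The first WT female was again far above the rest, and without it the log2 fold change of Cx3cr1 was -0.32 (adjusted p = 0.123). Its call was also lost with the replicate block and with upper-quartile scaling (adjusted p = 0.0644 and 0.0630). The ligand did not differ beyond the spread. The Cxcl12 receptors were not called in either sex, Cxcr4 at 0.57 in females and 1.07 in males (adjusted p = 0.289 and 0.292) and the scavenger Ackr3 at -0.14 and 0.64 (adjusted p = 0.658 and 0.266). Cxcr3, through which Pf4 can act, had estimates of -1.16 and 0.23 (adjusted p = 0.133 and 0.922). Gpr35, proposed as a receptor of Cxcl17 and disputed as one, had -0.47 and 0.84 (adjusted p = 0.323 and 0.391).

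For Ccl28 and Ccl22 the receptors were barely detected. Ccr10 and Ccr3, the receptors of Ccl28, had 0 to 7 and 0 to 3 counts per library, Ccr4, the receptor of Ccl22, had 0 to 3, and Ccr8, the receptor of Ccl8 in mice, had 0 to 2. Differences in these receptors were not detectable at this depth. The ligand most abundant per length in WT females thus had receptors near the limit of counting, while the ligands of Ccr1 and Cx3cr1 had receptors that could be measured.

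The genes whose pattern over the 12 libraries was most like each member are given as a description, by Pearson's r of log2 CPM, counts scaled to library size, without a test and with the group means as part of what the points share. Ccl9 was most like Ccr2 (r = 0.975), followed by Trim30a (0.973) and Fli1 (0.965). Ccl6 was most like Tubb6 (0.976), Rab3il1 (0.974) and Prcp (0.962), and Ccl8 like Tsc22d3 (0.907), Ccl6 (0.905) and Rab3il1 (0.903), so that the closest genes of Ccl8 included another member. Ccl22 was most like Plekhf1 (0.939) and the interferon-induced genes Ifi206 (0.934) and Oas3 (0.929). Pf4 was most like Dab2 (0.943), Tnfaip6 (0.922) and St6galnac6 (0.919).

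Cxcl12 was most like Enpp2 (0.974), which encodes the secreted enzyme autotaxin, Qki (0.966) and Mdfic (0.965). Cxcl14 was most like Lama2 (0.969), Serpinf1 (0.965) and Lamb1 (0.962), of which Lama2 and Lamb1 encode laminin chains of basement membranes. Ccl28 was most like the amino acid transporter gene Slc6a14 (0.987), Sntb1 (0.986) and Gm14325 (0.984), and Cxcl17 like Vps53 (0.976), Sun1 (0.971) and Ddx59 (0.970). Cx3cl1 had no close partner, with Adamdec1 first at 0.808, then Sorcs2 (0.805) and 2810405F15Rik (0.798).

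Antisense genes overlap some members, and whether the authors' quantification used strand is not given in the sources used here. E230016K23Rik, which overlaps Ccl6 and Ccl9, had 1 to 21 counts per library, and 4732471J01Rik, which overlaps Cxcl17, had 21 to 75, few beside the members' own counts. Gm60502, which overlaps Ccl28, and 1700121C10Rik, which overlaps Cx3cl1, were not analysed here.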

How the data were processed

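Bulk RNA-sequencing of 12 submandibular glands, 3 mice in each of 4 groups set by the deposited labels, was analysed, and other data of the study were not used here. The labels name polyA RNA as the molecule, while the protocol describes stranded libraries after ribosomal RNA depletion. The authors quantified reads with Salmon 1.10.1 against Gencode M35 on GRCm39 (mm39) and deposited estimated counts per gene, which were rounded to whole numbers. A second table deposited by the authors holds a normalized signal, the counts divided by a factor per gene and library, and was used only to derive those divisors for an alternative. How the divisors were made is not given in the sources used here. No column was without a sample (0 left out).

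The main test was edgeR 4.0.16 (R 4.3.3) with TMM factors, its default low-count filter, a quasi-likelihood fit of 1 mean per group and Benjamini-Hochberg adjustment over 17893 genes, called at 0.05. DESeq2 1.42.0 served as an alternative, and the edgeR steps were tested on simulated data. Gene positions and lengths came from Gencode M39 (GRCm39), where 55563 of 56065 identifiers matched. Normalized counts are TMM-scaled counts at the mean effective library size. All 10 members are named throughout. From the lists of other ligands, receptors and markers, at most 5 called genes per list and genotype comparison are named, besides the members' receptors and markers that touch a result. The members and lists were chosen with earlier results of these data known. Total counts of 47031917 to 67881902 limit precision for genes with few counts, and a count of 0 allows up to 3 counts, a limit that covers counting error only. The main p-values rest on the spread between mice within groups of 3. That spread was estimated in a single fit over all 12 libraries and drew on other genes. Alternatives were other scalings, filters and models, each library left out, and, chosen after seeing the data, 3 libraries whose adipocyte markers summed to over 1000 normalized counts left out together and Cxcl14 counted apart from the epithelial class.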

Additional observations from a re-analysis of the deposited data

Results flagged for a closer look

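The genotype difference of 4 chemokines differed between females and males by the interaction test (edgeR, Benjamini-Hochberg). These 4 genes stand in the study's own list of male genes, made from these same libraries, so the test is not independent evidence. The female minus male difference on the log2 scale was -2.66 for Ccl6, -3.13 for Ccl8, -2.19 for Ccl9 and -1.57 for Pf4. Ccl9 and Pf4 lost the call when certain single libraries were left out (edgeR adjusted p up to 0.0725 and 0.0747). Without the 3 libraries high in adipocyte markers the differences were -1.50 for Ccl6, -2.25 for Ccl8, -0.97 for Ccl9 and -0.89 for Pf4. The 3 KO females lay below the WT female means for Ccl6, Ccl8 and Ccl9, and all 3 KO males lay above the WT male means for the 4 genes. For Ccl6 and Ccl9 the female groups overlapped and neither gene passed the test in females. Their WT female means were raised by the first WT female, at 545 and 777 normalized counts, the library high in macrophage markers. The sums of adipocyte markers (146 to 384 in KO females against 223, 599 and 4536 in WT females, and 218, 3325 and 2040 in KO males against 94.4 to 106 in WT males) ran in the same directions, and their part in these differences was not tested. With groups of 3 mice, single mice could not be judged as outliers.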

How the results depend on the processing

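Of 900 fold changes of single members under the alternatives, 814 kept their direction and their side of the threshold, 34 lost and 20 gained a call, and 32 changed sign. In females the count of 2 called members became 1 with upper-quartile scaling, 1 with library sizes from protein-coding genes and 1 with the replicate number as a block, Ccl8 being lost each time, and 1 to 2 with any single library left out. In males 0 became 4 with DESeq2, 4 with no low-count filter (1.26% of all genes called) and 0 to 6 with a single library left out. The interaction's 4 became 2 to 5, and the 6 of the sex comparison 3 to 7. Without the 3 adipocyte-high libraries the counts were 0 in females, 0 in males, 0 in the interaction and 6 between the sexes. The lost female calls kept their size (Ccl28 -0.56, Ccl8 -1.28), while the male estimates of the myeloid members were smaller (0.45 to 0.97). Fewer mice enter these last fits, and the cause was not tested otherwise.

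The sign changes fell on estimates that passed no test. In females Pf4 became 0.051 (upper quartile) and 0.012 (protein-coding sizes), Cxcl14 -0.0085 (20 most abundant genes left out of library sizes), -0.13 (the authors' divisors) and -0.026 (replicate block), Cxcl17 -0.0072 (20 genes left out) and -0.15 (divisors), and Cx3cl1 0.014 (upper quartile) and 0.13 (divisors). Upper-quartile scaling moved the median of all genes in females from 0.03 to 0.13. Without the 3 adipocyte-high libraries the male Cxcl12 became -0.24 and Cxcl17 0.042, the interaction of Ccl22 0.18, of Cxcl12 0.078 and of Cx3cl1 -0.12, and the sex difference of Pf4 -0.083, which was -0.0097 with the upper quartile. With single libraries left out, the female values ran from -0.29 to 0.026 for Pf4, -0.43 to 0.20 for Cxcl14 and -0.14 to 0.064 for Cxcl17. The male Ccl28 ran from -0.23 to 0.089, the interaction of Cx3cl1 from -0.083 to 0.19, and the sex differences of Pf4 and Cx3cl1 from -0.081 to 0.21 and -0.19 to 0.054. The cause of these moves was not tested.

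Replicate numbers did not pair the mice, since deviations of same-numbered mice correlated at 0.050, -0.10 and -0.11 in females and 0.090, 0.0044 and -0.13 in males. Among the members, the block changed no other call than that of Ccl8 in females and of Cxcl14 between the sexes, where 7 members were called, and the receptor Cx3cr1 lost its calls in females and between the sexes (adjusted p = 0.0644 and 0.0518). Depth limits Ccl8, Ccl22 and Pf4, with 12 to 223 counts per library.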

Other observations

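Outside the 10 genes, 2 more patterns were seen, both named after their values were known. Cxcl16, a chemokine of epithelium and macrophages that was not among the members, ran like Cxcl17 between the sexes. It had 613, 507 and 576 normalized counts in WT females and 1281, 1686 and 1326 in WT males, a log2 difference of 1.34 (edgeR adjusted p = 7.8e-06), without overlap. Mertk, a macrophage receptor gene of the marker list, went against most of that list. It was higher in WT males than in WT females by 1.77 on the log2 scale (edgeR adjusted p = 8.6e-08) and higher in KO than in WT females by 0.97 (edgeR adjusted p = 1.3e-04), while 3 other macrophage markers were called lower in KO females.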
